A study of Drosophila melanogaster with 9 samples.

Results

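The baseline transcriptome of S2 cells was taken from the 3 libraries of cells that received control double-stranded RNA (dsRNA) against GFP, out of the 9 libraries of the series. S2 (Schneider 2) is an established Drosophila melanogaster cell line derived from late embryos. GFP is a jellyfish protein with no counterpart in the fly, so its dsRNA serves as a control for dsRNA uptake itself. Cells were transfected with 1 µg of dsRNA and total RNA was sequenced 3 days later. The 6 libraries with dsRNA against HP1a or Su(var)3-9 were not used. The labels do not say whether the 3 replicates came from separate cultures, so the spread between them may be technical. No untreated S2 cells were compared, so a response to dsRNA shared by all libraries cannot be told apart from the baseline.

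The gene table held 15168 genes, of which the 14088 with a CG identifier, used for protein-coding genes, were kept. These genes took 15.3%, 10.9% and 15.1% of the deposited TPM in replicates 1, 2 and 3. TPM, a transcript abundance, corrects for transcript length and sums to the same total in each library. Each library was therefore rescaled to a total of 1000000 over the CG genes, and all levels below are in rescaled TPM unless stated. A gene with a mean of at least 1 is called expressed. Deposited values were multiplied by 6.52, 9.19 and 6.60 in replicates 1, 2 and 3. A rescaled TPM of 1 is thus well under 1 deposited TPM, and counts for lists of low genes depend on this threshold. TPM retains no read number, so the depth is unknown from these values and no counting interval is given. A value of 0 is reported as listed at 0, since ND-B8, a subunit of respiratory complex I, and ATP8, a mitochondrially encoded subunit of ATP synthase, were also at 0 in all 3 libraries.

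S2 cells are known as macrophage-like cells. In the fly, blood cells (hemocytes) comprise plasmatocytes, which engulf microbes and dying cells and secrete extracellular matrix, crystal cells, which melanize wounds, and lamellocytes, which encapsulate parasites. The Toll pathway, which ends in the NF-κB factors dl and Dif, and the Imd pathway, which ends in Rel, control immune genes in these cells and in the fat body. A dividing cell line also needs the replication, mitotic and growth machinery, and the question put to these data was which of these programmes, and which programmes of other tissues, left transcripts in the 3 libraries.

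Of the 14088 CG genes, 8258 (58.6%) were expressed and 3381 (24.0%) were listed at 0 in every library, leaving 2449 above 0 but under 1. The number of genes above 0 was 9515, 9617 and 9653 in replicates 1, 2 and 3, and 7657 genes reached 1 in every library. Expression was concentrated in few genes. The 132 genes at 1000 or more held 50.3% of the rescaled TPM, and between 122 and 135 genes held 50% of it in a single library. The median level of an expressed gene was 28.9.

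**Figure D1:**
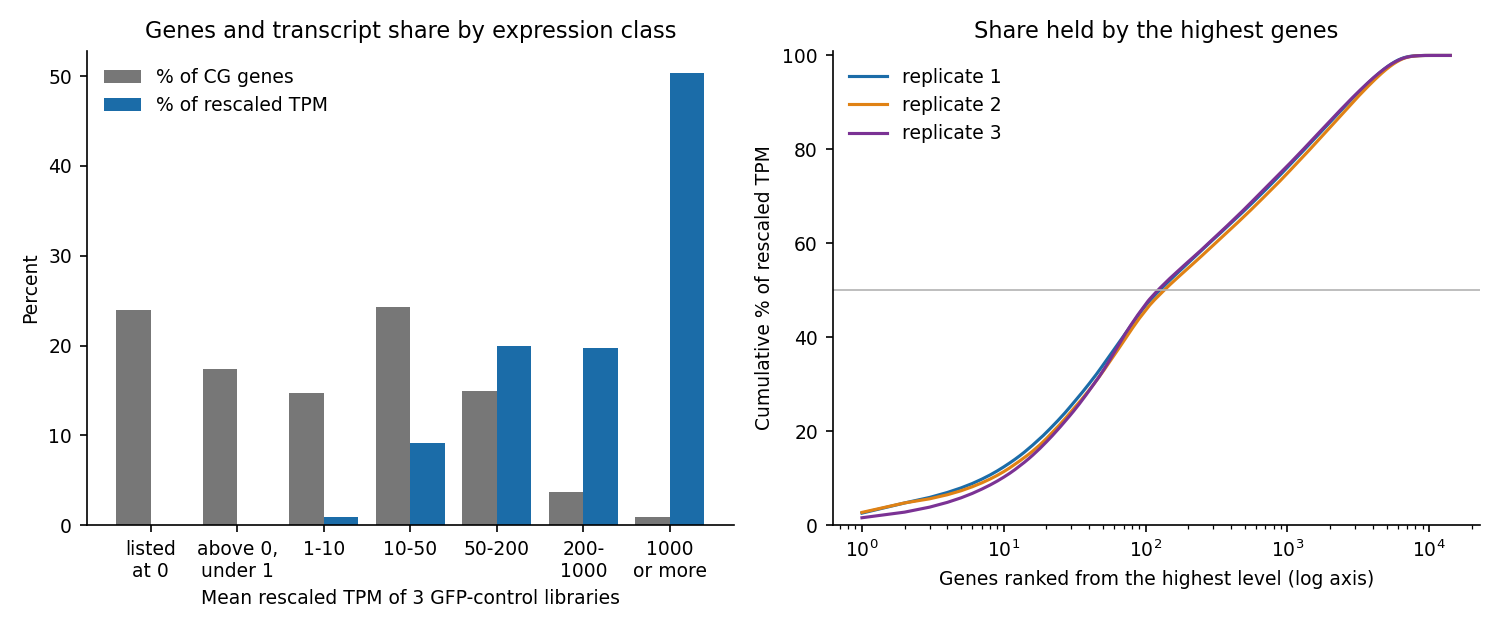
Left, the percent of the 14088 CG genes (grey) and of the rescaled TPM (blue) in each class of mean level over the 3 GFP-control libraries. Right, the cumulative percent of rescaled TPM over genes ranked from the highest level (log axis), 1 line per library. The class of 1000 or more holds 132 genes and 50.3% of the TPM, and the 3 lines nearly coincide.

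Genes at the extremes differed in structure. The median transcript length was 746 bases among genes at 1000 or more, against 1552 bases among all CG genes. Most of these 132 genes were ribosomal protein genes, 47 of the large and 33 of the small subunit. Of the genes under 1 with an annotated structure, 28.7% of those listed at 0 had a single exon, as did 15.4% of those above 0, against 11.3% of expressed genes. The genes listed at 0 included 102 single-exon histone genes, most of them near-identical copies of the histone repeat. The median coding length was 771 bases for genes listed at 0 and 1407 bases for those above 0 and under 1, against 1338 bases for expressed genes. Short genes were often at 0: of 41 genes under 200 bases, 38 were listed at 0, and of 564 genes of 200 to 400 bases, 402 were. The levels of such short genes were not separated here from limits of detecting short transcripts. Genes that carry only a CG number as a name made up 61.5% of the genes listed at 0 and 1.52% of those at 1000 or more.

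Ribosomal protein genes led the transcriptome. RpL39, a small protein near the ribosomal exit tunnel, had 26019, 27523 and 11956 in replicates 1, 2 and 3, and RpL41 had 21588, 20208 and 16137. RpS23, of the small subunit, had 8856, 8488 and 10641. RpL39 was lower in replicate 3 than in the other libraries, whereas RpS23 was highest there. Of 53 large-subunit genes 51 were expressed with a list median of 3417, and of 39 small-subunit genes 37 were expressed with a list median of 3744, against a median of 4.31 over all CG genes. The large-subunit list took 23.2% of the rescaled TPM in each library and the small-subunit list 12.7%, 13.0% and 15.4%. The members listed at 0 were RpL10Aa, RpS28a and RpS28-like, copies of genes whose other copy was expressed.

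Beside ribosomal proteins, the 20 highest genes held eEF1alpha1, Arc1, Act5C, COX1 and lncRNA:CR34335, a gene with a CG identifier that is now annotated as noncoding. eEF1alpha1, the factor that brings aminoacyl-tRNA to the ribosome, had 7926, 8692 and 10145. Arc1, a capsid-forming protein of retrotransposon origin known from neurons, had 7607, 8036 and 8322, so that its level varied little between libraries. Act5C, a cytoplasmic actin, had 6225, 6614 and 9164. lncRNA:CR34335 had 11758, 8504 and 4119 and was lowest in replicate 3. Of the CG genes, 126 are now annotated as not protein-coding, and 40 of these were expressed. Further high genes, other than ribosomal protein and mitochondrially encoded genes, were chosen here after their values were seen. They included tsr, the actin-severing cofilin, with 6703, 5822 and 6405 in replicates 1, 2 and 3. eEF5 had 5525, 5755 and 5715 in the 3 libraries, and the lysosomal protease CtsL1 had 1887 ± 67.7 (SD, n = 3).

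Across 54 gene lists, 29 had a larger share of expressed members than the 58.6% of all CG genes, 7 had every member expressed and 4 had none. The lists with every member expressed were the mitochondrial ribosome (71 of 71 genes), DNA replication (25 of 25), the mitotic cycle (20 of 20), dosage compensation and sex determination (16 of 16), the core spliceosome (15 of 15), RNA polymerase II (11 of 11) and the chaperonin CCT (8 of 8). The lists with no expressed member were Hox genes (0 of 8), Y-linked genes (0 of 25), testis markers (0 of 14) and male accessory gland proteins (0 of 39). The lists were put together with results of these data known, so the counts are descriptions.

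**Figure D2:**
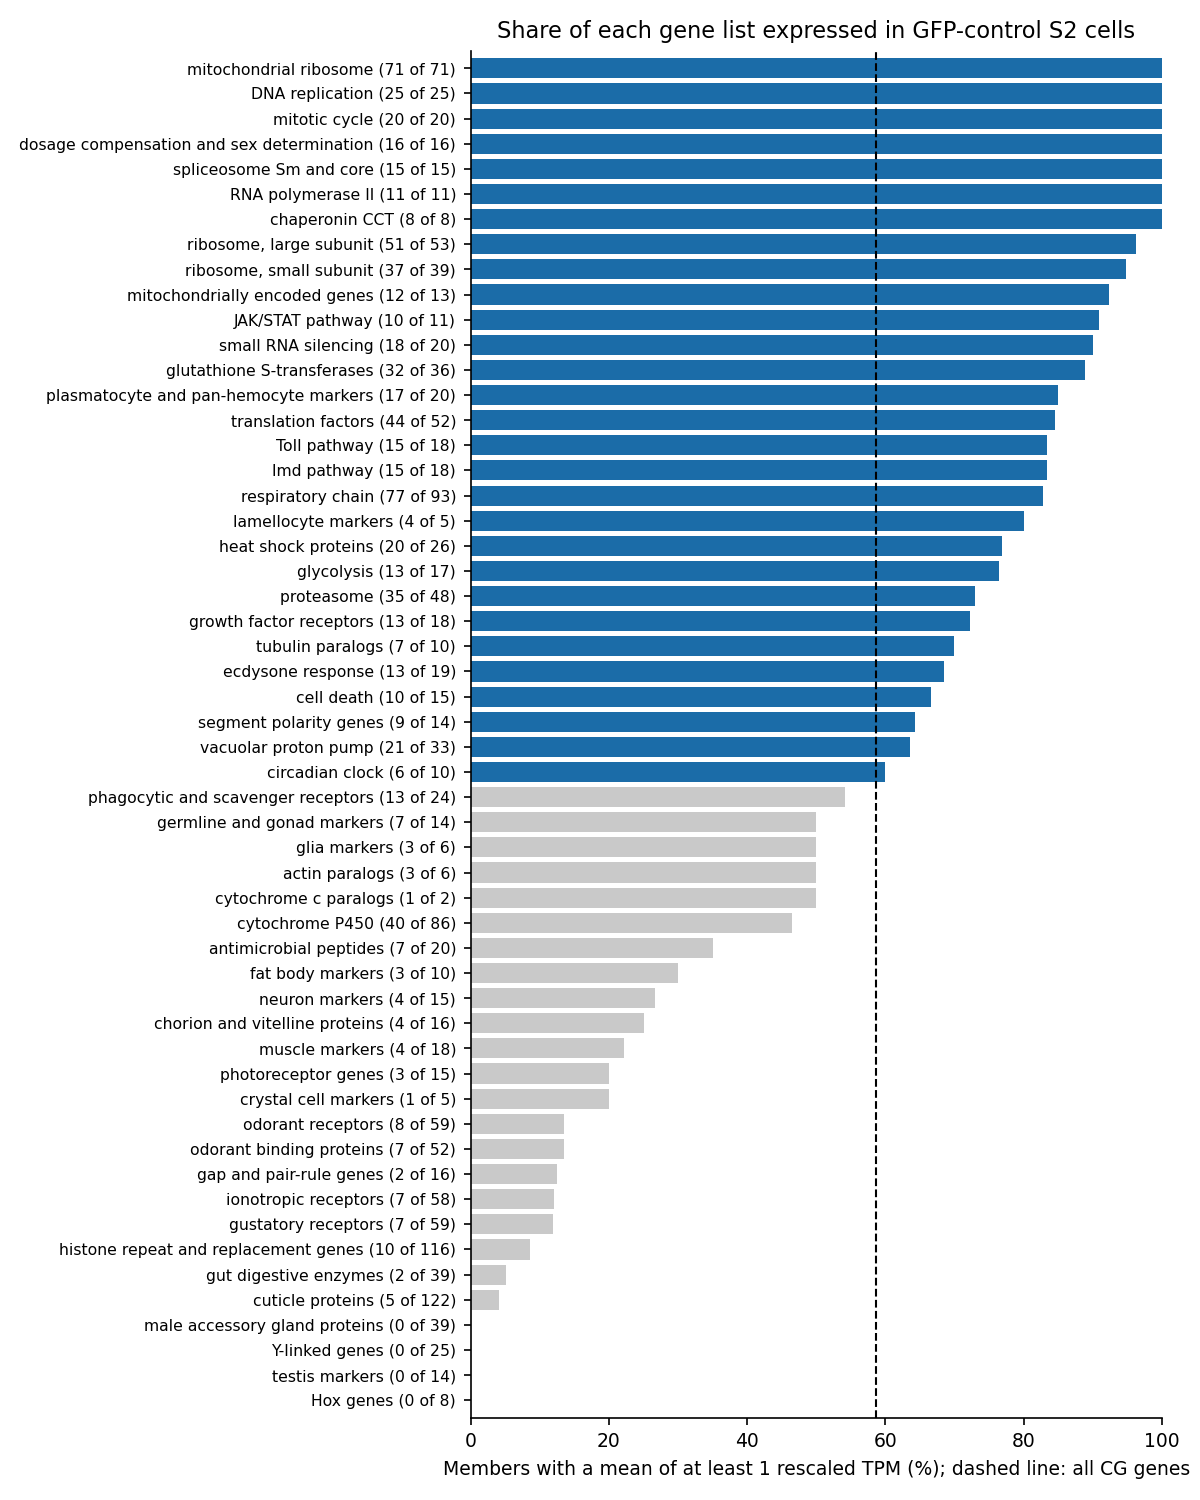
The percent of members of each of 54 gene lists with a mean of at least 1 rescaled TPM in the 3 GFP-control libraries, with the number of expressed members and of all members in brackets. Blue bars lie above and grey bars below the share of all CG genes (dashed line, 58.6%). Lists of cell-division and core gene-expression machinery reach 100%, and tissue-restricted lists lie at the bottom.

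Growth and division genes were expressed throughout their lists. DNA replication genes had a list median of 73.1 and were led by RnrS, the small subunit of ribonucleotide reductase (375, 400.5 and 407 in replicates 1, 2 and 3). The lowest was Orc1, of the origin recognition complex (12.8, 27.6 and 14.9), which was highest in replicate 2. Among mitotic cycle genes, the kinase polo had 179, 147 and 167, and the phosphatase twe, known for its role in meiosis, was lowest with 8.47, 10.3 and 8.06. RNA polymerase II subunits had a list median of 141. They were led by Polr2K (863, 574 and 417), and the largest subunit, Polr2A, was lowest (33.2, 57.1 and 39.9). The 8 CCT genes, which fold actin and tubulin, lay between 471 and 736.

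Genes of energy metabolism were mostly expressed. Of 93 nuclear respiratory chain genes 77 were expressed, led by ATPsynCF6 (1512, 1370 and 1174). Of 17 glycolytic genes 13 were expressed, led by Gapdh2 (779.8, 740.2 and 816). The glycolytic members at 0 were Pglym87, Hex-t1 and Hex-t2, copies known from testis. Of 33 vacuolar proton pump genes 21 (63.6%) were expressed, near the 58.6% of all CG genes. Vha16-1 was the highest of them (1049, 924 and 718). Of 26 heat shock protein genes 20 were expressed, led by the constitutive chaperone Hsc70-4 (3746, 3789 and 4800), and Hsp60B, Hsp60C and Hsc70-2 were listed at 0.

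In 15 families a generic gene was set beside copies known from a restricted tissue. The restricted copies held under 1% of the family sum in every library in 12 families. In the actin family, the muscle actins Act57B, Act79B, Act87E and Act88F together held 0.0811%, 0.157% and 0.123% in replicates 1, 2 and 3. The exceptions were gamma tubulin, beta tubulin and RpS19. gammaTub37C, the maternal gamma tubulin, had 27.3, 24.4 and 31.4, against 71.4, 70.6 and 55.2 for gammaTub23C, and held 27.7%, 25.7% and 36.3% of the family. betaTub60D, known from muscle and nervous system, had 129.8, 163 and 164. Together with the testis gene betaTub85D, which was under 1, it held between 6.36% and 8.15% of the sum of both with betaTub56D. RpS19b had 34.1, 52.8 and 34.3, against 2627, 2196 and 2626 for RpS19a. Of the 22 restricted genes, 15 were under 1 and 6 of these were listed at 0.

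Copies of nearly equal sequence limit such readings, because RSEM divides reads that fit several genes. Of 48 proteasome genes 35 were expressed, and the 11 at 0 were paralogs such as Prosalpha4T1, Prosalpha3T and Prosbeta5R1. Prosalpha1R was the highest proteasome gene with 664, 634 and 702, above Prosalpha1 with 76.1, 87.9 and 87.9, a pair singled out after its values were seen. Of 116 histone genes only 10 were expressed and 102 were listed at 0. The histone genes with appreciable levels were the replacement variants, which lie outside the repeat: His3.3B (1190, 1148 and 788), His4r (912, 865 and 528), His2Av (698, 621 and 477) and His3.3A (252, 208 and 233). The members of the histone repeat are near-identical copies, so their single values are uncertain. Their zeros are not read as silence, since how reads of the whole repeat were assigned was not tested.

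Most genes on the list of plasmatocyte and pan-hemocyte markers were expressed. The list counts matrix and ferritin genes and leaves out NimC1, a plasmatocyte marker placed among the receptors below. How far its members are restricted to hemocytes was not tested. Of 20 such genes 17 (85%) had a mean of at least 1, against 58.6% of all CG genes, and the list median was 47.1. Matrix genes ranked highest: SPARC had 919, 931 and 1395 in replicates 1, 2 and 3, and the laminin chain LanA had 523, 875 and 699. LanB1 had a mean of 220.2 ± 49.6 and LanB2 of 127 ± 40.5 (SD, n = 3), Pxn (peroxidasin) of 92.2 ± 13.3 and Tig (tiggrin) of 66.3 ± 13.3. The collagen IV chains Col4a1 and vkg were lower, with means of 22.4 ± 7.46 and 19.4 ± 5.40, and Ppn (papilin) had 4.28 ± 1.13. The matrix genes thus covered a wide range, and the laminins and SPARC lay above both collagen chains in every library. In these bulk libraries, fewer cells with a transcript and less transcript per cell cannot be told apart.

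Receptors and regulators of the blood lineage also covered a wide range. Pvr, the receptor that supports hemocyte survival, had 189, 226 and 224. The GATA factor srp, a determinant of hemocytes, had 52.3, 68.0 and 32.2, and its cofactor ush had a mean of 65.9 ± 12. The repressor zfh1 had 43.3 ± 18.2. The hemocyte surface protein He had 15.4, 6.52 and 4.16, and Hml (hemolectin), a widely used plasmatocyte marker, had 6.19, 8.36 and 8.39. He was highest in replicate 1 and Hml was steady, and both were under the median expressed gene. The ferritin chain Fer1HCH had 672 ± 40.6, whereas Fer2LCH, its partner chain, had 1.79 ± 1.06. The members under 1 were Ance (0.876 ± 0.494) and the factors gcm and gcm2, which act early in embryonic hemocytes: gcm had 0.195, 0 and 0, and gcm2 had 0, 0.184 and 0.198.

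Phagocytic and scavenger receptors split between high and silent genes. Of 24 such genes 13 (54.2%) were expressed, slightly under the 58.6% of all CG genes. The integrin chain mys had 169, 183 and 191, pes had 122, 125 and 94.8, and crq (croquemort), a CD36-family receptor for dying cells, had 107, 92.5 and 83.9. The bacterial receptor eater had 29.3, 22.3 and 34.1 and drpr (draper) had 21.2, 31.8 and 24.4. By contrast NimC1, a receptor used as a plasmatocyte marker, had 0.391, 0 and 0, while its relative NimC4 had 36, 30.8 and 54.1. NimC2, NimA and PGRP-LC were listed at 0.

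The crystal cell and lamellocyte markers differed. Of 5 crystal cell markers only the prophenoloxidase PPO2 was expressed (2.87, 5.14 and 2.91), PPO1 had 0, 0.276 and 0, and the crystal cell determinant lz was listed at 0. Of 5 lamellocyte markers 4 (80%) were expressed. Among them cher (360.1, 450.4 and 480.2) and msn (147, 201 and 161) are used in many cell types, whereas PPO3, the lamellocyte prophenoloxidase, had 21.4, 24.5 and 28.9 and ItgaPS4 had 10.6, 12.4 and 8.85. The lamellocyte surface protein atilla had 0, 0 and 1.25.

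**Figure D3:**
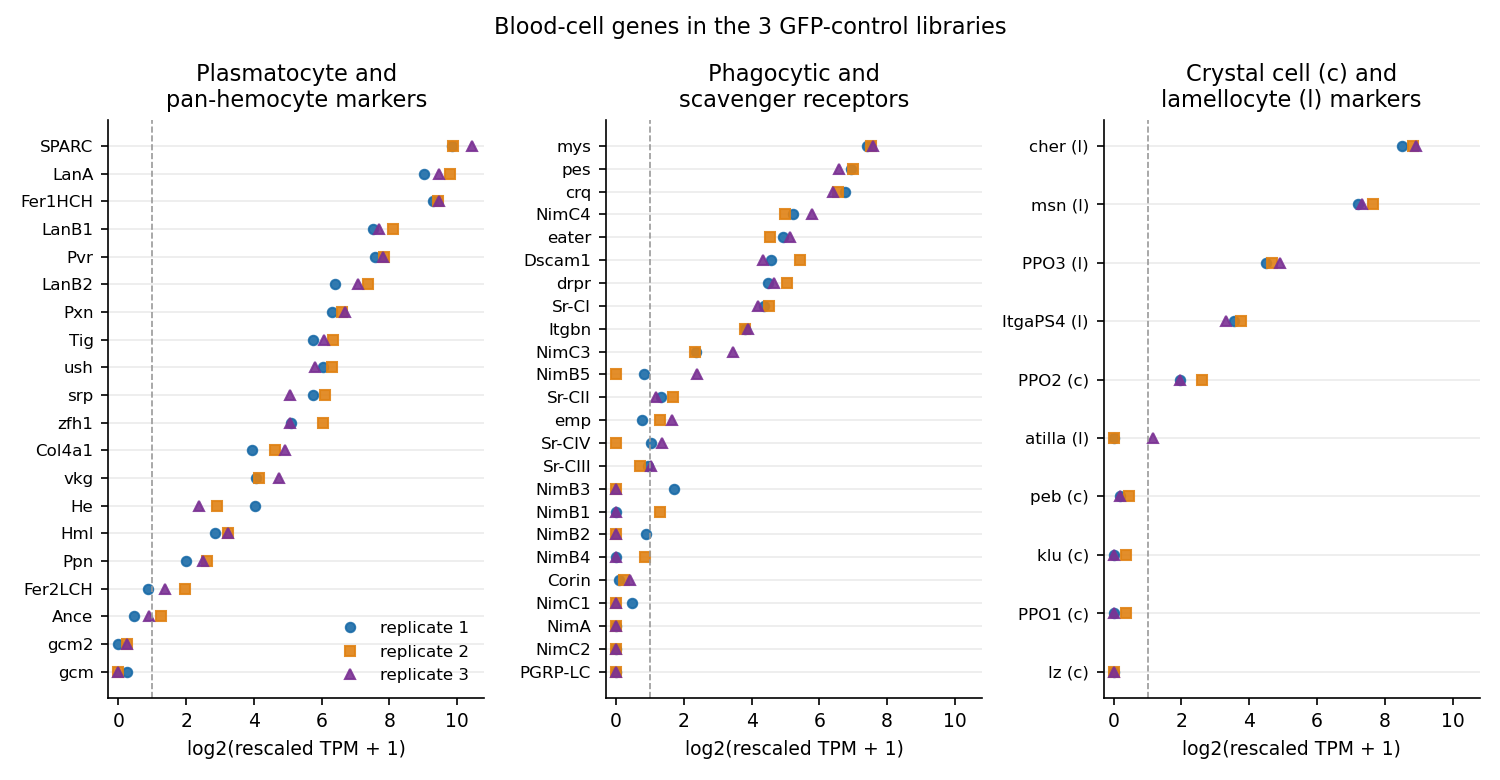
Levels of blood-cell genes as log2(rescaled TPM + 1), 1 symbol per GFP-control library, ordered by mean within each panel. The dashed line marks 1 rescaled TPM. SPARC and LanA lead the hemocyte panel, gcm and gcm2 lie at its foot, and lz and PGRP-LC lie at 0 in all 3 libraries.

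The intracellular parts of both immune pathways were expressed. Of 18 Imd pathway genes 15 were at or above 1. Rel had 57.1, 76.4 and 64.3, the adaptor imd had 12.4, 11.4 and 8.32, and the caspase Dredd had 12, 17.1 and 11.6. The ubiquitin-conjugating enzyme eff (785, 654 and 254) and the gene Uev1A (344, 322 and 190) were highest, and both were lowest in replicate 3. They were followed by key (201, 162 and 170) and the ubiquitin-conjugating enzyme ben (183, 149 and 183). Of the Imd receptors, PGRP-LE had 6.45, 11 and 7.93, whereas PGRP-LC, the membrane receptor, was listed at 0 in all 3 libraries, and the amidases PGRP-SC2 (0.726 ± 1.26) and PGRP-LB (0.154 ± 0.267) were under 1.

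Of 18 Toll pathway genes 15 were also expressed. The ligand spz was highest (156, 150 and 103), and the receptor Tl had 5.54, 8.36 and 6.41. The adaptors tub and Myd88 had means of 70.9 ± 2.34 and 15.7 ± 2.47, the inhibitor cact 45.1 ± 5.04, dl 28.0 ± 2.63 and Dif 7.95 ± 0.407 (SD, n = 3). The proteases SPE (0.242 ± 0.419) and psh (0.174 ± 0.301) were under 1 and the serpin nec was at 0. The effector genes were low. Of 20 antimicrobial peptide genes 7 (35.0%) were expressed, against 58.6% of all CG genes, and CecA1 was highest (11.9 ± 5.34). CecA1, CecB and CecC were above 1 in every library. Drs had 8.80, 6.06 and 0, and AttD had 2.02, 0 and 1.45. Drsl1 (15.05, 0 and 0) and Mtk (0, 7.17 and 0) each passed the threshold through a single library. The count of 7 thus rests in part on single libraries. Members listed at 0 numbered 9, among them AttA, AttC, Def and DptB. The named adaptors and NF-κB factors of both pathways were above 1 in every library, whereas Drsl1, Drs, Mtk and AttD were at 0 in at least 1. The mean of CecA1 lay above those of Dif and imd.

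Of 11 JAK/STAT genes 10 were expressed. The transcription factor Stat92E had 166, 159 and 129, the kinase hop had 19.2 ± 4.04, the receptor dome 18.3 ± 3.10 and the inhibitor Socs36E 53.6 ± 5.79. The ligands were low: upd2 had 4.08 ± 1.44, upd3 had 1.79 ± 0.571, and upd1 had 0.326, 0 and 0. Growth factor receptors followed Pvr at a distance: 13 of 18 were expressed, InR, the insulin receptor, had 21.5, 26.2 and 19.6, and Egfr had 1.37, 0.827 and 1.85. The lowest was sev, the photoreceptor kinase, with 0.105 ± 0.0682. Of 19 ecdysone response genes 13 (68.4%) were expressed, against 58.6% of all CG genes. The receptor subunits usp and EcR had 50.2 ± 6.25 and 17.6 ± 4.41, ImpL2, an insulin-binding protein, was highest with 263, 346 and 324, and the nuclear receptors Hr3 (0.161 ± 0.0881), Hr4 (0.180 ± 0.106) and Hr38 (0.223 ± 0.0789) were under 1.

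In the cell death list, 10 of 15 genes (66.7%) were expressed, against 58.6% of all CG genes. The inhibitor Diap1 was highest (273, 265 and 258), above the apoptosome scaffold Dark (54.6, 55.9 and 53) and the caspases Dronc (23.7, 29.4 and 29.3) and Drice (60.5, 63.5 and 57.0). Of the inhibitors' antagonists, rpr had 12.8, 7.90 and 7.26 and hid had 7.82, 8.64 and 3.57, and grim was listed at 0. Diap1 lay above every other member in every library.

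Genes of small RNA silencing were expressed in 18 of 20 cases. AGO2 (89.6, 109 and 58.8) and Dcr-2 (70.2, 102 and 69.6), which act in RNA interference, were joined by AGO1 (54.1, 65.3 and 32.8) and Dcr-1 (27.0, 38.1 and 34.9), which act with microRNAs. Several piRNA factors, known mainly from the gonad, were also present: armi had 117, 122 and 119.6, krimp had 105, 104 and 79.4, aub had 38.9, 44.8 and 32.5 and AGO3 had 31.9, 31.0 and 13.9. piwi was low (2.80, 2.11 and 2.51), and vas (0.502 ± 0.133) and qin (0.381 ± 0.284) were under 1. Of 14 germline and gonad markers 7 were expressed, led by aub, and zpg was lowest with 0.0881 ± 0.153. bam had 7.44 ± 1.05, bgcn 16 ± 2.87 and osk 6.71 ± 0.480.

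All 16 dosage compensation and sex determination genes were expressed. Dosage compensation raises transcription of the male X chromosome through the MSL complex. Its members mof (50.6, 54.1 and 48.5), mle (33.5, 30.5 and 26.9), msl-1 (22.4, 24.8 and 14.7), msl-3 (20.5, 27.6 and 13.5) and msl-2 (15.6, 19.4 and 19.8) lay between 18.2 and 51.1 on average. Sxl, the sex determination switch, had 38.8, 45.3 and 32.4, and the list was led by snf (186, 143 and 155), a spliceosomal protein that acts with it. dsx, the last gene of the sex determination cascade, was lowest with 1.17, 1.75 and 0.330.

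Detoxification genes separated into families. Of 36 glutathione S-transferase genes 32 were expressed, led by GstE6 (1057, 1093 and 1023) and GstD1 (479, 465 and 526), and GstE14 was listed at 0. Of 86 cytochrome P450 genes 40 (46.5%) were expressed, against 58.6% of all CG genes. Their count was 16 with TPM as deposited and 22 at a threshold of 5. The highest were Cyp12d1-d (238, 231 and 238) and Cyp12d1-p (180.4, 189 and 178), near-identical neighbours whose reads may be divided between them.

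Genes that mark other tissues were mostly silent. Of 122 cuticle protein genes 5 (4.10%) were expressed and 93 were listed at 0, and the highest, Cpr67Fb, had 2.28, 9.46 and 11.3. The count was 10 without replicate 1 and 8 without replicate 2 or without replicate 3, and 1 with TPM as deposited or at a threshold of 5. Of 39 gut digestive enzymes 2 were expressed, Mal-B2 (30.3 ± 5.69) and iotaTry, which had 0.586, 0.827 and 2.58, so that the count was 1 without replicate 3. Chemoreceptor genes were expressed in 8 of 59 odorant receptors, 7 of 59 gustatory receptors and 7 of 58 ionotropic receptors, and 7 of 52 odorant binding proteins were expressed. The count of odorant receptors was 5 without replicate 2, and 2 with TPM as deposited or at a threshold of 5. The highest were Or46a (12.1, 17.2 and 10.4), Gr94a (22.9, 27.2 and 31.3) and Ir62a (6.58, 9.46 and 9.11), and the co-receptor Orco was listed at 0. The low share of these lists was thus not uniform, since each receptor family had a few members at or above 1 in every library.

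Of 15 neuron markers 4 were expressed, led by elav (7.75, 6.62 and 6.93), an RNA-binding protein, whereas brp had 0.149 ± 0.0730 and para, Gad1, fne and Rdl were listed at 0. Of 6 glia markers 3 were expressed, but repo, the glial determinant, had 0.131 ± 0.132. Of 18 muscle markers 4 were expressed, led by the factor Mef2 (15.6, 19.1 and 11.4), while Mhc, the muscle myosin, had 0, 0.184 and 0.0660 and Tm2, Mlc1 and TpnC73F were at 0. Of 15 photoreceptor genes 3 were expressed, norpA, trpl and inaD, and no rhodopsin had a mean of 1 or more. Of 10 fat body markers 3 were expressed, led by Lsp1gamma (2.15, 5.51 and 2.25), and the yolk proteins Yp1 and Yp2 and the storage protein Lsp2 were at 0. Of 16 chorion and vitelline genes 4 were expressed, none above the 3.76 of Cp7Fa. Of 10 clock genes 6 were expressed, including cyc (46.8, 67.6 and 57.3), whereas per (0.184 ± 0.184) and tim (0.210 ± 0.136) were under 1 and Clk was listed at 0.

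Embryonic patterning genes differed between lists. No Hox gene was expressed: lab was highest with 0.130, 0.184 and 0.330, and Scr, Abd-B and pb were listed at 0. Of 16 gap and pair-rule genes 2 were expressed, hry (51.9, 78.0 and 41.4) and gt (1.34 ± 0.512), and 7, among them eve, ftz and prd, were at 0. Of 14 segment polarity genes 9 (64.3%) were expressed, near the 58.6% of all CG genes. They were led by arm, the fly β-catenin (218, 229 and 214). The signal transducers dsh (31.0 ± 4.76), smo (22.6 ± 4.34) and fz (8.97 ± 0.431) were present, while the ligands wg (0.105 ± 0.0948) and hh (0.153 ± 0.265) and the factor en (0 in all libraries) were under 1. The transcription factors gsb and ci had means above 1.

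Neighbouring genes were compared along the chromosomes. Gene order was taken from the RefSeq Release 6 table, a later assembly than the dm3 build of the files. Of 12928 neighbouring pairs, 48.4% were both expressed and 27.0% both under 1. Of the neighbours of expressed genes 79.7% were expressed, against 60.7% of all genes placed in order. Of the neighbours of genes under 1, 68.7% were under 1 (68.1% without the histone repeat), against 39.3% of all genes placed. The longest run under 1 was the histone repeat with 88 genes, all listed at 0 and near-identical to each other. The next were 43 genes on 3L from l(3)72Dr to CG33257, of which 37 were at 0, and 35 genes on 3R that held the Osiris (Osi) cluster, in which no gene exceeded 0.490. A run of 24 genes on 3R, from lab to Mst84B, covered the Antennapedia complex with its Hox genes and a group of cuticle genes, and its highest level was 0.282. The longest expressed run held 62 genes on X, from CG14811 to Mct1, with means between 1.01 and 228.

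Chromosomes differed in the level of their expressed genes. On X, 1420 of 2179 genes (65.2%) were expressed, against 6635 of 11282 (58.8%) on the major autosome arms. The median expressed gene had 23.9 on X and 30.8 on these arms, a ratio of 0.776, which was 0.725, 0.775 and 0.769 in replicates 1, 2 and 3. All 25 Y-linked genes were listed at 0. The copy number of each chromosome in these cells was not measured here, so the ratio is per gene and not per copy.

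The 3 libraries were close for most genes. Over the 8258 expressed genes, Pearson's r of log2(rescaled TPM + 1) was 0.973 between replicates 1 and 2, 0.959 between 1 and 3, and 0.959 between 2 and 3. These are correlations across genes, which are not independent replicates. The difference between 2 libraries was within 2-fold for 94.9%, 92.8% and 92.2% of genes in the same order of pairs. The median SD of a gene was 0.238 on the log2 scale, with quartiles of 0.141 and 0.379, and 228 genes (2.76%) had an SD above 1. The spread was larger for low genes, with a median SD of 0.389 for means of 1 to 10 and 0.177 for means of 50 to 200. Leaving out replicate 3 lowered the median SD to 0.160. Leaving out replicate 1 or replicate 2 also lowered it, by less. An SD of 2 libraries is not directly comparable with an SD of 3, so the whole fall cannot be ascribed to replicate 3.

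The 10 steadiest genes with a mean of at least 50 included Ipo9, an importin (120.3, 120.6 and 120.5), pst (77.8, 78.2 and 77.7), Sgt1, a chaperone cofactor (110.3, 109.7 and 109.4), the chaperonin subunit CCT7 (510.6, 510.4 and 506.1), CG17266 (79.9, 80.4 and 80.6), smid (111.5, 111.4 and 110.4), CG14818, CG6230 and CG13895. Each of the 10 varied by at most 0.0194 on the log2 scale between its lowest and highest library. In all, 205 of the 2761 genes with a mean of at least 50 had a range under 0.1.

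Of the 10 most variable genes with a mean of at least 10, 4 were set beside a partner gene on the same arm. CG11042 had 0, 19.9 and 1198 in replicates 1, 2 and 3. Dpm2 had 48.4, 6.25 and 0, and CG12016, a gene on the same arm with a transcript of nearly the same length (2324 against 2312 bases), had 0, 42.0 and 40.9. Their sum was 48.4, 48.2 and 40.9, so the pair was far steadier than either member. Likewise CG32857 had 13.5, 0.276 and 175 while CG32500 had 117, 144 and 2.84, and the sum of these with CG32819 and CG32820 was 131, 146 and 179. The partners and sums were chosen after the single values were seen. The other genes were CG34288, CG34187, CG42245, CG41124 and CG17343, each at 0 in at least 1 library.

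Mitochondrially encoded genes were the group that moved most between libraries. Of 13 such genes 12 were expressed, and ATP8 was listed at 0. They held 4.08%, 3.20% and 1.01% of the rescaled TPM in replicates 1, 2 and 3. COX1 had 9328, 7982 and 2759, COX3 had 9796, 7897 and 2128, and CYTB had 5518, 3745 and 785. Replicate 3 was the lowest library for 10 of the 12 expressed genes, against 39.6% of the expressed CG genes outside the mitochondrial genome and chromosome 4, and was more than 2-fold under both other libraries for the same 10, against 2.04% of those genes. ND4L was highest in replicate 3 (226, 121 and 342) and ND2 was lowest in replicate 2 (72.6, 42.9 and 50.4). The ratio of replicate 3 to the mean of the other libraries, taken gene by gene, had a median of 0.293. The nuclear respiratory chain genes did not move with them as a list, which held 2.86%, 2.68% and 2.69% of the rescaled TPM. Its single members went both ways: 39 of the 77 expressed were lower in replicate 3 than the mean of replicates 1 and 2 on the log2 scale.

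**Figure D4:**
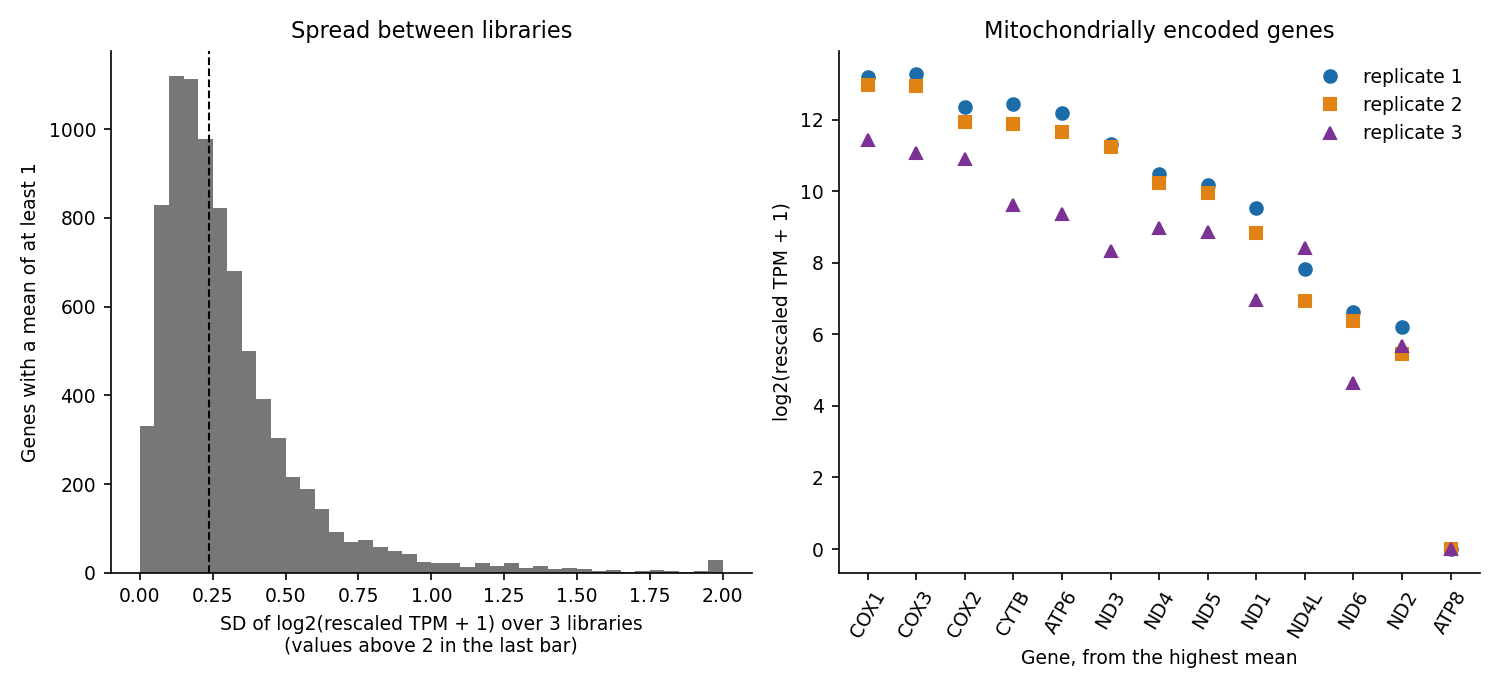
Left, the number of expressed CG genes by the SD of log2(rescaled TPM + 1) over the 3 GFP-control libraries, with the median of 0.238 dashed and values above 2 gathered in the last bar. Right, the levels of the 13 mitochondrially encoded genes by library on the same log2 scale. Replicate 3 (triangles) is the lowest library for 10 genes, highest for ND4L, and ATP8 lies at 0 throughout.

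Genes of chromosome 4 moved the same way. This small, largely heterochromatic chromosome had 63 of 82 genes expressed (76.8%), with medians of 43.9, 42.3 and 19.9 in replicates 1, 2 and 3. Replicate 3 was lowest for 57 of the 63 expressed genes, against 39.6% of the expressed CG genes outside it and the mitochondrial genome, and the median gene differed by -0.73 on the log2 scale from the mean of replicates 1 and 2, against -0.03 over all expressed CG genes. Arf4 had 197, 180.1 and 87.3 and eIF4G1 had 166 ± 44.6. RpS3A (2118, 2311 and 2422) and ATPsynbeta (990.3, 965 and 1018), the highest genes of the chromosome, were not lower in replicate 3. The chromosome and these genes were singled out after their values were seen. The percentages of genes lowest in replicate 3 lay between 33.5% and 43.7% on X and the 4 major autosome arms.

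Long genes differed between replicates 1 and 2. Only genes with a mean of at least 10 were compared here. The median difference of replicate 1 minus replicate 2 on the log2 scale was -0.58 over 83 genes of 8000 bases or more. It was -0.31 over 731 genes of 4000 to 8000 bases, against -0.00 over 2181 genes of 1000 to 2000 bases. LanA and Polr2A, named above, were each highest in replicate 2. The part of transcript length, RNA quality or depth in these differences was not tested.

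Main isoforms were described for the 1840 genes with at least 2 annotated transcripts, a mean of at least 20 and a transcript above 0 in every library. The main transcript, the one with the highest mean share of its gene, accounted for a median of 81.3% of the gene. It was the same transcript in all 3 libraries for 1435 genes (78.0%). In the 657 genes whose main transcript held 90% or more on average no other transcript could lead. The main transcript was the same in 392 of 424 between 75% and 90%, 356 of 593 between 50% and 75% and 30 of 166 under 50%. Of the 5915 transcripts of these genes, 923 (15.6%) were listed at 0 in every library, and 3309 held 10% or more on average.

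Replicate 3 again stood apart. The main transcript differed in replicate 3 alone for 231 genes, in replicate 1 alone for 88 and in replicate 2 alone for 65, and 21 genes had a different main transcript in each library. In the 231 genes, the main transcript of replicate 3 was shorter than that of the other libraries for 197 (85.3%) and longer for 32, with a median difference of -134 bases. Without replicate 3, the main transcript was the same for 90.6% of genes. For the same genes 2 libraries agree at least as often as 3, so this value largely restates the counts above.

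Among the highest genes with a changing main transcript, Act5C-RD held 78.5%, 51.4% and 16.4% of Act5C in replicates 1, 2 and 3, and Act5C-RA led in replicate 3 with 51.1%, against 2.84% and 29.9% in replicates 1 and 2. RpL32-RB held 91.1%, 90.4% and 37.6%, and RpL32-RE, at 0 in replicates 1 and 2, held 58.4% in replicate 3. RpS30-RA held 82.2%, 78.2% and 44.9%, and RpL7A-RA 74.9%, 60.8% and 32.5%. Replicate 3 was therefore lowest for these 4 transcripts, whereas eEF1gamma-RB was lowest in replicate 2 (71.8%, 49.9% and 76.8%). pAbp-RG, eEF1delta-RA and Hsc70-3-RC each had their highest share in replicate 3. Su(var)205, the gene of HP1a, singled out after its values were seen, had its transcript RA at 73.7%, 73.7% and 43.7%.

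**Figure D5:**
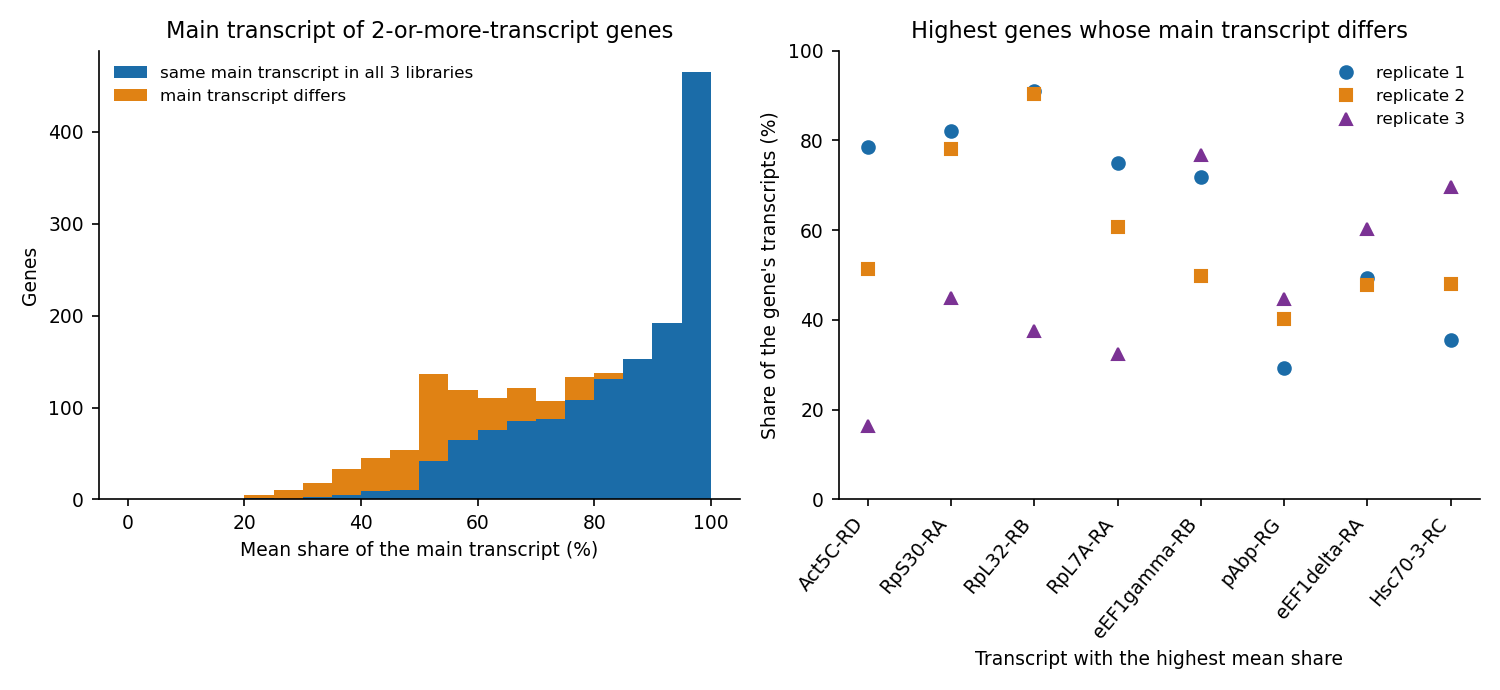
Left, the number of genes by the mean share of the main transcript, in blue where it was the same in all 3 GFP-control libraries (1435 genes) and in orange where it was not (405 genes). Right, the share of the transcript with the highest mean share in each library for the 8 highest genes whose main transcript differs. Replicate 3 (triangles) is lowest for Act5C, RpS30, RpL32 and RpL7A.

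The genes with the lowest main shares included several with many annotated transcripts. Among the 287 genes with 5 or more transcripts the median main share was 56.6%, and a dominant form was also seen in such genes: hfp, with 9 transcripts, had a main share of 84.3%, a gene singled out after its values were seen. Dscam1, an immunoglobulin receptor known for its many splice forms, had 26 annotated transcripts, and its main transcript held 14.5% ± 3.99 (SD, n = 3), with 10 transcripts above 0 in every library. The BTB factors lola and mod(mdg4), also with 26 transcripts each, had main shares of 21.7% ± 3.29 and 23.9% ± 3.95, and 24 transcripts of mod(mdg4) were above 0 in every library. The lowest main shares also included Sxl (21.0% ± 9.89), Tep2 (23.7% ± 24.6), Tlk (24.9% ± 28.3), Doa (25.1% ± 26.5) and CG16765 (25.2% ± 2.91). The large SDs of Tep2, Tlk and Doa, each with a main transcript at 0 in a library, differ from the small ones of lola and mod(mdg4).

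A main form of over 80% in every library was seen in EcR, msl-2 and His3.3A, whereas sgg, fru, Rel and br were divided among several forms. EcR, msl-2, br, tra and dsx had mean gene levels under the minimum of 20. They are therefore not among the genes counted above, and their shares rest on low levels. EcR-RB held 92.6%, 98.2% and 100% of EcR, msl-2-RB held 91.2%, 83.9% and 100%, and His3.3A-RA held 100% in each library. Tm1-RA, of tropomyosin, held 78.3%, 76.2% and 78.6%, and sgg-RD, of the GSK3 kinase, 41.3%, 39.8% and 39.9%. fru, a BTB factor of sexual behaviour, was led by fru-RD (31.5%, 42.5% and 39.0%), Rel by Rel-RB (65%, 46.7% and 46.2%), AGO2 by AGO2-RB (83.8% ± 7.51), tra by tra-RB (92.7%, 57.0% and 66.2%) and br by br-RA (41.0%, 35.8% and 65.7%). The 3 transcripts of dsx had RA at 100% in every library, at a gene level of 1.08.

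In 34 genes 2 transcripts each held more than 40% in every library. RpS21-RE and RpS21-RA held 52.0% ± 1.71 and 47.6% ± 1.42, and shot-RH and shot-RE, of the spectraplakin that links actin to microtubules, held 48.5% ± 6.89 and 47.7% ± 5.64. ND-ACP, Nopp140, Nubpl and aqz were divided likewise, with main shares of up to 55.8%. NAT1-RA and NAT1-RC were listed with identical shares in every library, 49.8% on average. In 10 genes the 2 leading transcripts had the same length and the same share in every library, Dscam1 among them, so that the deposited values do not separate them.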

How the data were processed

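The authors trimmed reads with Cutadapt, aligned them to the dm3 build with STAR and estimated expression with RSEM. They deposited TPM per gene and per transcript, rounded to 2 decimals, with the gene or transcript length in bases. Depth per library is not kept in these values. The deposited knockdown tables hold the authors' own fold changes and posterior probabilities and were not used.

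Groups came from the sample labels. Genes with a CG identifier were rescaled to 1000000 per library. Of these, 13585 (96.4%) matched the RefSeq Release 6 gene table, 12957 by locus tag and 628 by synonym. It gave symbols, chromosome and gene order. Exon number and coding length came from the Ensembl annotation for 13113 genes (93.1%), in place of protein length. No coordinates are given because the builds differ.

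Values were analysed as log2(rescaled TPM + 1). With a single group no test was run. The genes named were the 20 highest, the highest and lowest of each list, members at 0, the hemocyte markers, the 10 most variable and 10 steadiest genes and 8 genes per isoform class. A few genes that this rule names are not reported here. Others are said to have been seen first. Further members of lists were named for their known role. The members, lists and rules were chosen with earlier results of these data known, and the mitochondrially encoded, Y-linked and heat shock lists were added after the files were read. Alternatives were TPM as deposited, median-ratio size factors, other thresholds, filters and pseudocounts, and leaving out each library. Scripts were tested on simulated data and used pandas 2.3.3 and numpy 2.4.6 in Python 3.11.15, with matplotlib 3.10.9 for figures.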

Additional observations from a re-analysis of the deposited data

How the results depend on the processing

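No paired analysis was possible because a single group was described. Of 67 recomputed summary values 49 stayed within 1.5 times the count or within 1 SD between libraries. Expressed genes numbered between 6562 (TPM as deposited) and 8874 (threshold 0.5), with 8187 to 8336 when a library was left out, and 61.3% of genes with a coding length of at least 300 bases were expressed. Lists above the share of all genes numbered 29 to 31. The median SD was 0.160 to 0.212 when a library was left out and 0.182 with no filter. The main transcript was the same for 81.6% to 90.6% of genes when a library was left out, with a median share of 81.2% to 83.4%, and the median share was 82.4% for gene means of at least 50. With TPM as deposited, the ratio of X to the autosome arms was 0.818, single-exon genes made up 21.8% of genes under the threshold and 9.66% of those above it, and the median coding lengths were 1083 and 1362 bases. At a threshold of 5 these were 22.0%, 9.99%, 1065 and 1359 bases. The median coding length of expressed genes was 1335 to 1341 bases when a library was left out. The median log2 difference of the mitochondrially encoded genes in replicate 3, -1.75, was -1.43 with TPM as deposited, -1.72 with size factors and -1.77 with a pseudocount of 0.1, alternatives chosen after seeing the data. Of the counts for single lists, 288 of 324 stayed within 1.5 times, and 16 of the 36 others arose with TPM as deposited and 15 at a threshold of 5. The causes were not tested. Promoter motifs were not run, since no promoter sequences were used here.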
